A study of Macaca mulatta with 34 samples.

Results

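The genes described here are ATXN1, the target of the miS1 artificial microRNA, and 9 genes tied to it through the transcriptional repressor capicua. They were chosen by name: ATXN1 and its paralog ATXN1L, the repressor CIC and the splicing factor RBM17, the ETS factors ETV1, ETV4 and ETV5, and the feedback genes DUSP6, SPRY4 and SPRED1. All 10 symbols matched 1 macaque gene identifier each, among 34847 identifiers in the count tables. Genomic positions and sequences are not given, because the sources used here do not name the genome build of the tables.

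ATXN1 is a nuclear protein whose expanded polyglutamine tract causes spinocerebellar ataxia type 1, a disease of the cerebellum. ATXN1 and ATXN1L bind and stabilise capicua, a DNA-binding protein that holds ETS factor genes and feedback inhibitors of the RAS-MAPK pathway in check. Growth factor signalling through ERK relieves that repression, so ETV1, ETV4, ETV5, DUSP6, SPRY4 and SPRED1 are used as readouts of capicua activity as well as of MAPK signalling.

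Total RNA came from rhesus macaques, from the deep cerebellar nuclei (DCN) that carry the output of the cerebellum. The animals had received an injection into these nuclei guided by magnetic resonance imaging. Study 1 addressed the toxicity of AAV.miS1, an adeno-associated virus (AAV) vector that carries miS1, with 6 AAV.miS1 libraries and 4 vehicle libraries. Study 2 compared redesigned constructs, with 3 libraries each of empty capsid (AAV particles without cargo), intmiS1, miSCA7Stuffer and StufferOnly, the last 3 being vectors with different cargo. Each library carries its own animal identifier. The sources used here state no dose, interval after injection or age, and all of the animals, controls included, had the injection. Study 1 has no empty capsid group and Study 2 has no vehicle group, so each construct was set against the control of its own study, and the 3 comparisons with empty capsid share those 3 control libraries.

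Vehicle library 2 held 87741 counts in genes, against 2049685 to 4810852 in the other Study 1 libraries. Its member values rested on 10 reads for ATXN1, 6 for ATXN1L, 26 for CIC and 1 for DUSP6. In Study 2, intmiS1 libraries 1 and 2 held 5169866 and 4858179 counts and were counted by another program than the other 10 libraries, which held 20978241 to 39792653. Within intmiS1, program, depth and animal cannot be told apart. Values are counts per 1000000 counts in genes (CPM) after TMM scaling, set separately for the 2 studies, so levels were not compared across studies or between genes.

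Markers of DCN projection neurons, SLC17A6, MEIS1, MEIS2 and LHX9, were detected in every group. Other cell types varied widely. The 10 microglia and macrophage markers summed to 287 to 665 CPM with vehicle and 606 to 6659 with AAV.miS1, and to 265 to 287 with empty capsid and 1956 to 2269 with StufferOnly. The 12 general neuron markers summed to 2939 to 5591 CPM with vehicle and 144 to 5492 with AAV.miS1. Libraries of miSCA7Stuffer differed among themselves. Library 1 held 1.64 vector reads per 1000000 counts in genes (RPM), 4839 CPM of neuron markers and 235 of microglia markers, and libraries 2 and 3 held 349 and 257 RPM, 751 and 842 CPM, and 1507 and 1357 CPM. In bulk tissue, fewer cells of a type and less RNA per cell cannot be told apart.

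All 6 AAV.miS1 libraries held less ATXN1 than each of the vehicle libraries, and the difference missed the adjusted threshold. Vehicle libraries held 98.7, 104, 92.5 and 91.2 CPM of ATXN1. The lowest, median and highest AAV.miS1 library held 49.6, 58.2 and 90.2 CPM. Library 1 stood at 90.2, next to the vehicle range, and the other 5 lay between 49.6 and 61.9. The place of library 1 depended on TMM scaling. Without it, library 1 held 76.9 CPM, the other 5 held 50.7 to 61.4, and the lowest vehicle library held 92.4. The log2 fold change was -0.62 (SE 0.18, 95% confidence interval -1.02 to -0.22), with an adjusted p of 0.0604 in edgeR's quasi-likelihood test with Benjamini-Hochberg adjustment over 13383 genes. Of all genes tested, 7.5% passed that threshold in this comparison, and 7.22% passed it as higher. The share of genes whose groups were separated with AAV.miS1 on the lower side was 2.88%. The exact permutation test of log2 CPM, two-sided, gave a difference of -0.66 with p = 0.0143, where the smallest possible value is 0.00476, and 0.0857 after adjustment over the 6 ATXN1 comparisons. Without AAV.miS1 library 1 the fold change was -0.75 with an adjusted p of 0.0208 in edgeR. Without the shallow vehicle library 2 it was -0.60 (adjusted p 0.10). Among the 5 libraries with over 15% of reads unmapped, 3 of them vehicle, it was -0.74 with an adjusted p of 0.137.

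In Study 2 the ATXN1 levels of the 4 groups overlapped. Empty capsid libraries held 45.5, 53.9 and 57.6 CPM. The intmiS1 libraries held 50.5, 28.5 and 44.3 CPM. StufferOnly libraries held 49.6, 48.8 and 50.5 CPM. Of the intmiS1 libraries, 2 lay below every empty capsid library and 1 within their range, and the StufferOnly libraries all lay within it. The miSCA7Stuffer libraries held 58.9, 24.8 and 39.6 CPM, so that library 1 was the highest of all 12 and library 2 the lowest. By mean the order was empty capsid (52.3 ± 6.20), StufferOnly (49.6 ± 0.887), intmiS1 (41.1 ± 11.3) and miSCA7Stuffer (41.1 ± 17.1; SD, n = 3 each). No neighbours in that order differed beyond their spread.

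**Figure D1:**
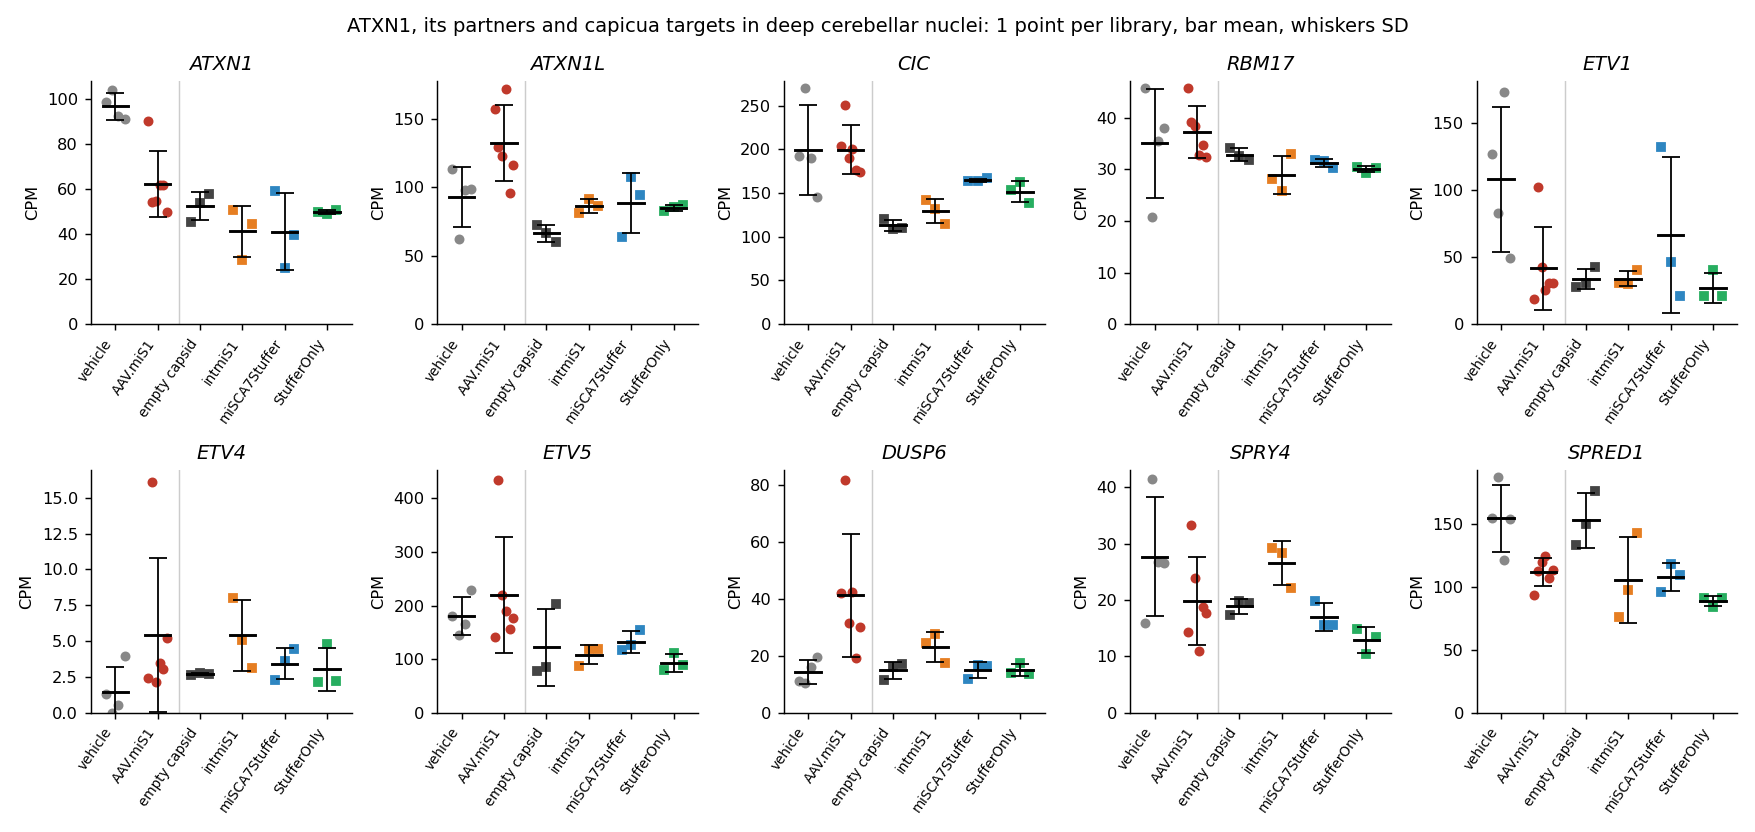
CPM (y axis, linear, from 0) of each of the 10 genes by group (x axis), with 1 point per library, a bar at the mean and whiskers of 1 SD; Study 1 is left of the grey line (circles) and Study 2 right of it (squares), scaled separately. ATXN1 in AAV.miS1 lies below all vehicle points, while ETV1, ETV4, ETV5 and DUSP6 each have 1 AAV.miS1 library, library 2, far above the rest.

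Against empty capsid, the log2 fold change of ATXN1 was -0.35 with intmiS1 (95% interval -0.98 to 0.29, adjusted p 0.722 in edgeR), -0.35 with miSCA7Stuffer (-0.96 to 0.26, 0.443) and -0.08 with StufferOnly (-0.69 to 0.53, 0.862). Exact permutation p values were 0.2, 0.4 and 0.6, and 3 libraries against 3 cannot go below 0.1. Against StufferOnly, the changes were -0.27 with intmiS1 and -0.27 with miSCA7Stuffer (adjusted p 0.552 and 0.788 in edgeR). A fold change as large as that with AAV.miS1 lies inside each of the 3 intervals against empty capsid. The miSCA7Stuffer value turned on library 1, the library with few vector reads. Without it ATXN1 stood at -0.73 (adjusted p 0.0219 in edgeR), in a fit that called 6983 of 21539 genes, 3367 as higher and 3616 as lower. Neuron markers in libraries 2 and 3 were 751 and 842 CPM against 4458 to 6031 with empty capsid. Their part in the lower ATXN1 was not tested.

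ATXN1 was set beside the neuron markers, whose part in its level was not tested beyond the relative values below. AAV.miS1 library 1 had the lowest neuron marker sum of Study 1, 144 CPM, and the highest ATXN1 of its group. In StufferOnly libraries neuron markers summed to 4130, 2180 and 2051 CPM, against 4458, 5471 and 6031 with empty capsid, while ATXN1 lay within the empty capsid range. Relative to the mean log2 CPM of the 12 neuron markers, ATXN1 was higher by 0.89 with AAV.miS1 than with vehicle, with overlapping groups (exact permutation p = 0.548, two-sided, 0.548 adjusted over 2 comparisons). The neuron mean itself differed by -1.55 (exact permutation p = 0.0952, adjusted 0.190 over 2). Without AAV.miS1 library 1 the relative difference was 0.11. With intmiS1, neuron markers were near the control (-0.11, exact permutation p = 0.5), and relative ATXN1 was -2.10, -2.48 and -2.10 against -2.03, -1.85 and -1.99 with empty capsid. These groups did not overlap, with a difference of -0.27 and an exact permutation p of 0.1, the smallest that 3 against 3 allows (0.2 adjusted over 2).

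**Figure D2:**
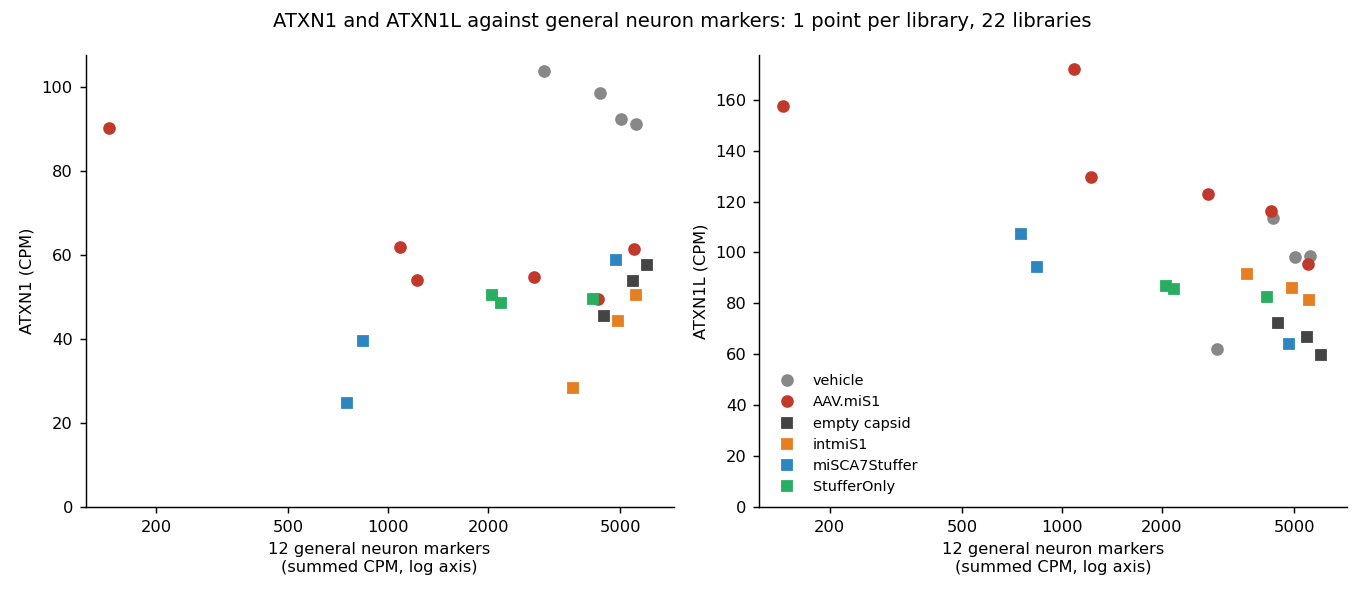
ATXN1 (left) and ATXN1L (right) in CPM (y axes, linear) against the summed CPM of 12 general neuron markers (x axes, log) in the 22 libraries, coloured by group. AAV.miS1 library 1 stands alone at 144 CPM of neuron markers with 90.2 CPM of ATXN1, and the vehicle libraries lie at 91.2 to 104 CPM of ATXN1.

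Vector reads varied among the AAV.miS1 libraries from 2.37 to 67.8 RPM on the reverse strand, and no relation of ATXN1 to them was detected. The stuffer, expression cassette and pri-miRNA features of the vector had 0 reads in these libraries, so the count may cover only part of the vector. Over these 6 libraries Pearson's r between log2 vector RPM and log2 ATXN1 was -0.20 (exact permutation p = 0.693) and Spearman's rho was -0.03 (p = 1, exact permutation), both 1 after adjustment over the 2 coefficients. Without libraries 2 and 5, the farthest from the median, r was -0.03. Counted on both strands, vector reads ran from 22.2 to 548 RPM and r was -0.52 (exact permutation p = 0.299), and on the linear scale of the reverse strand r was -0.29 (exact permutation p = 0.446). Library 2 had the most vector reads by both counts and held 54.1 CPM of ATXN1. The fewest were in library 5 on the reverse strand (61.6 CPM of ATXN1) and in library 1 on both strands (90.2 CPM). With 6 libraries only a strong relation could be detected.

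ATXN1L, the paralog that shares the capicua-binding region, was higher in mean than the control in all 4 construct groups and passed the threshold in no comparison. Vehicle libraries held 113, 62.3, 98.1 and 98.5 CPM. The lowest, median and highest AAV.miS1 library held 95.6, 126 and 172 CPM. Of the 6 AAV.miS1 libraries, 5 lay above every vehicle library. The log2 fold change was 0.45 (95% interval 0.00 to 0.89, adjusted p 0.182 in edgeR). With a covariate marking libraries with over 15% of reads unmapped it was 0.27 (adjusted p 0.443), and among those libraries alone 0.16 (adjusted p 1.00). In Study 2, empty capsid libraries held 72.2, 66.8 and 59.9 CPM, and StufferOnly libraries 82.7, 85.7 and 87.0. The intmiS1 libraries held 81.2, 91.5 and 86.0 CPM, and the miSCA7Stuffer libraries 64.0, 107 and 94.3. Thus every StufferOnly and intmiS1 library lay above every empty capsid library, and miSCA7Stuffer library 1 lay within the control range. The changes against empty capsid were 0.36, 0.38 and 0.42 for StufferOnly, intmiS1 and miSCA7Stuffer (adjusted p 0.209, 0.576 and 0.216 in edgeR). Without miSCA7Stuffer library 1 the last was 0.57 with an adjusted p of 0.005, in the fit that called 6983 of 21539 genes. The ATXN1L libraries that stood highest in each study, AAV.miS1 libraries 4 and 1 and miSCA7Stuffer library 2, had neuron marker sums of 1089, 144 and 751 CPM and microglia sums of 4701, 6659 and 1507. The part of these cell types in the ATXN1L levels was not tested.

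Vector reads of intmiS1 libraries 1 and 2 (568 and 648 RPM) were assigned to a vector reference whose name includes hATXN1L, and those of library 3 (44.6 RPM) to another. ATXN1L was as high in library 3 as in the other 2, and a share of vector reads in the ATXN1L counts was not tested. The ratio of ATXN1L reads to ATXN1 reads, looked at after the values were seen and given with no test, ran from 0.60 to 1.15 in vehicle libraries and from 1.55 to 2.78 in AAV.miS1 libraries. It was 1.04 to 1.59 with empty capsid, 1.61 to 3.21 with intmiS1 and 1.67 to 1.76 with StufferOnly. In miSCA7Stuffer it was 1.09 in library 1 and 4.31 and 2.38 in the others. The 2 Study 1 groups did not overlap in this ratio, and neither did intmiS1 or StufferOnly overlap empty capsid. The lowest intmiS1 ratio (1.61) was next to the highest of empty capsid (1.59). In Study 1 ATXN1 by itself already separated the groups. Of single genes, 10.4%, 20.2% and 49% did not overlap in these 3 comparisons, and the share of gene pairs was not computed.

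**Figure D3:**
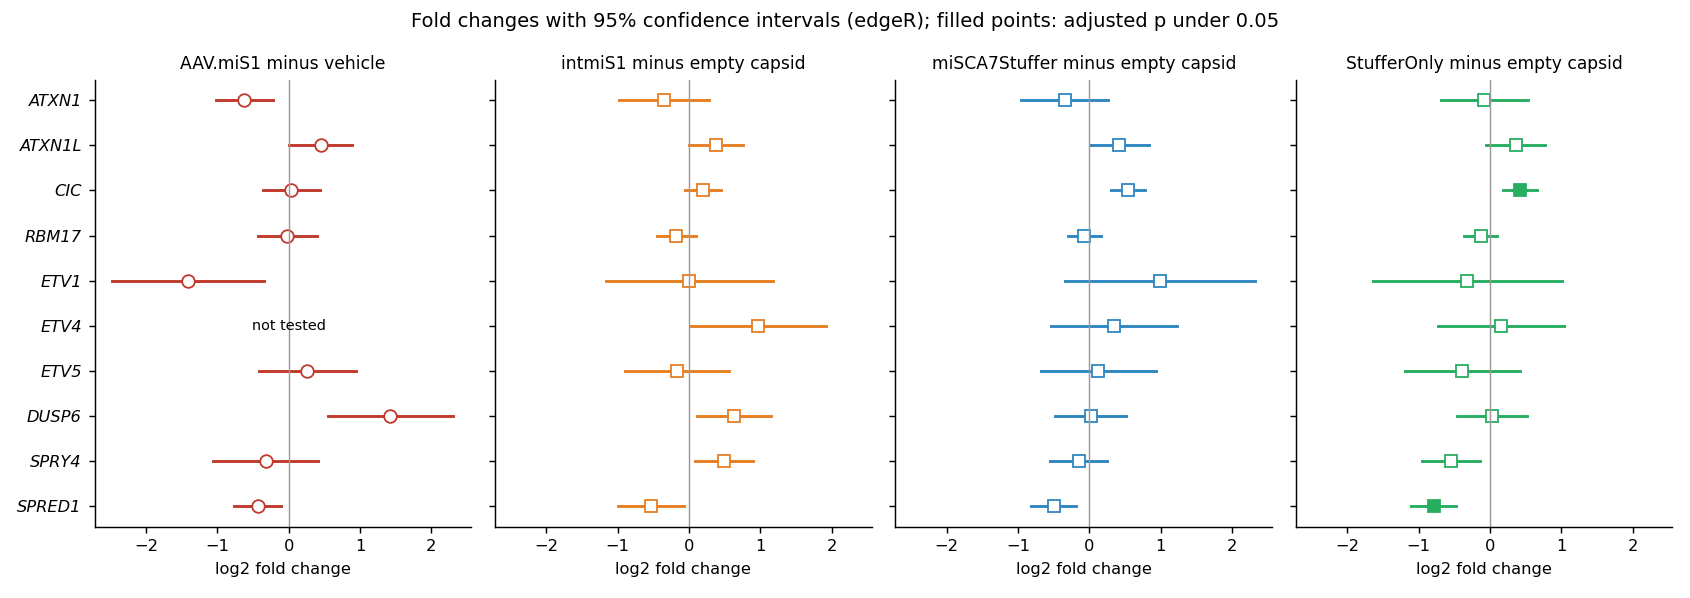
Log2 fold changes (x axes) of the 10 genes (y axis) in the 4 comparisons of a construct with the control of its study, with 95% confidence intervals from edgeR; filled points passed an adjusted p of 0.05. CIC and SPRED1 with StufferOnly are the only filled points, at 0.42 and -0.78, and the 3 comparisons at right share their empty capsid libraries.

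CIC, capicua itself, overlapped between the groups of Study 1 and rose with StufferOnly in Study 2. Vehicle libraries held 192, 270, 190 and 146 CPM, and AAV.miS1 libraries 175 at the lowest, 195 at the median and 251 at the highest. The 270 CPM come from 26 reads in vehicle library 2, and 3 of the 6 AAV.miS1 libraries lay above the other vehicle libraries. Its log2 fold change was 0.04 (95% interval -0.36 to 0.44, adjusted p 0.911 in edgeR), and 0.18 (adjusted p 0.478) without that library. Empty capsid libraries held 121, 108 and 110 CPM. StufferOnly libraries held 153, 162 and 139 CPM. The miSCA7Stuffer libraries held 163, 164 and 167 CPM. All 6 libraries of these constructs lay above all 3 controls, and the miSCA7Stuffer libraries lay close together. With StufferOnly the change was 0.42 (SE 0.11, 0.18 to 0.66), with an adjusted p of 0.0329 in edgeR. CIC and SPRED1 were the 2 of 10 genes that passed there, against 15.4% of all 20882 genes tested. With miSCA7Stuffer the change was larger, 0.54 (0.30 to 0.78), and did not pass (adjusted p 0.134 in edgeR, 3.46e-05 in DESeq2), in a comparison where edgeR called 0.00479% of genes. The 2 constructs differed by 0.12 (-0.12 to 0.36, adjusted p 0.740 in edgeR). The StufferOnly call of CIC was lost without any 1 of the 6 libraries compared (adjusted p 0.0624 to 0.217), without the filter on low counts (0.0668) and with the replicate block (0.0518). Microglia markers summed to 1956 to 2269 CPM with StufferOnly. In miSCA7Stuffer library 1 they summed to 235 CPM, below every empty capsid library, and CIC was 163 CPM there. That library also held 1157 CPM of 6 granule cell markers, against 55.2 to 76.7 with empty capsid. The part of these cell types in the CIC values was not tested.

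With intmiS1, CIC stood at 142 and 132 CPM in the 2 libraries counted by STAR and at 114 CPM in library 3, inside the control range. This was a log2 fold change of 0.20 (-0.06 to 0.45, adjusted p 0.627 in edgeR).

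RBM17, a splicing factor that binds ATXN1 in a complex separate from capicua, passed in no comparison. Vehicle libraries held 45.9, 20.8, 35.4 and 38.1 CPM, and AAV.miS1 libraries 32.5 at the lowest, 36.6 at the median and 45.8 at the highest. The 20.8 CPM come from 2 reads in vehicle library 2, and 3 of the 6 AAV.miS1 libraries lay below the other vehicle libraries. All 3 StufferOnly libraries (30.6, 29.4 and 30.3 CPM) and all 3 miSCA7Stuffer libraries (31.8, 31.6 and 30.3) lay below the empty capsid libraries (34.2, 32.7 and 31.8). The log2 fold changes were -0.13 and -0.07 (adjusted p 0.410 and 0.680 in edgeR). With AAV.miS1 the change was -0.02 (-0.43 to 0.39), or -0.09 without vehicle library 2, and with intmiS1 -0.18 (-0.45 to 0.09), where libraries 1 and 2 lay below the controls at 28.2 and 25.8 CPM and library 3 within their range at 33.0.

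The ETS factor genes are the best known capicua targets, and none passed the test in any comparison. ETV1 was lower with AAV.miS1 by its mean. Vehicle libraries held 127, 83.1, 173 and 49.1 CPM of ETV1, and the lowest, median and highest AAV.miS1 library 18.5, 30.6 and 102 CPM. All AAV.miS1 libraries but library 2 lay below every vehicle library. The log2 fold change was -1.41 (95% interval -2.48 to -0.34, adjusted p 0.0981 in edgeR), and -1.91 with an adjusted p of 0.0425 without library 2. In Study 2, empty capsid libraries held 27.9, 31.1 and 42.4 CPM and intmiS1 libraries 30.9, 30.3 and 40.2, which overlapped closely. StufferOnly libraries held 20.7, 40.1 and 20.8 CPM. The miSCA7Stuffer libraries held 132, 46.7 and 21.2 CPM, where library 1 stood far above all other libraries of Study 2. The miSCA7Stuffer change of 0.98 (-0.35 to 2.32, adjusted p 0.330 in edgeR) was -0.02 without it.

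ETV1 moved with granule cell markers. The 6 markers (NEUROD1, GABRA6, CBLN3, FAT2, ZIC1 and ZIC2) summed to 970, 1163 and 1219 CPM in vehicle libraries 1, 2 and 3, to 936 in AAV.miS1 library 2 and to 1157 in miSCA7Stuffer library 1. These were the 4 libraries with the most ETV1 in Study 1 and the library with the most in Study 2. In the other 6 libraries of Study 1 the markers summed to 86.9 to 153 CPM and ETV1 was 18.5 to 49.1, and in the other 11 of Study 2 they summed to 51.5 to 413 CPM and ETV1 was 20.7 to 46.7. This was seen after the values were known, and the part of granule cells in the ETV1 values was not tested. Vehicle library 4, the only vehicle library with few granule cell markers (99.5 CPM), held 49.1 CPM of ETV1, and the 5 AAV.miS1 libraries with few of them held 18.5 to 42.4.

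**Figure D4:**
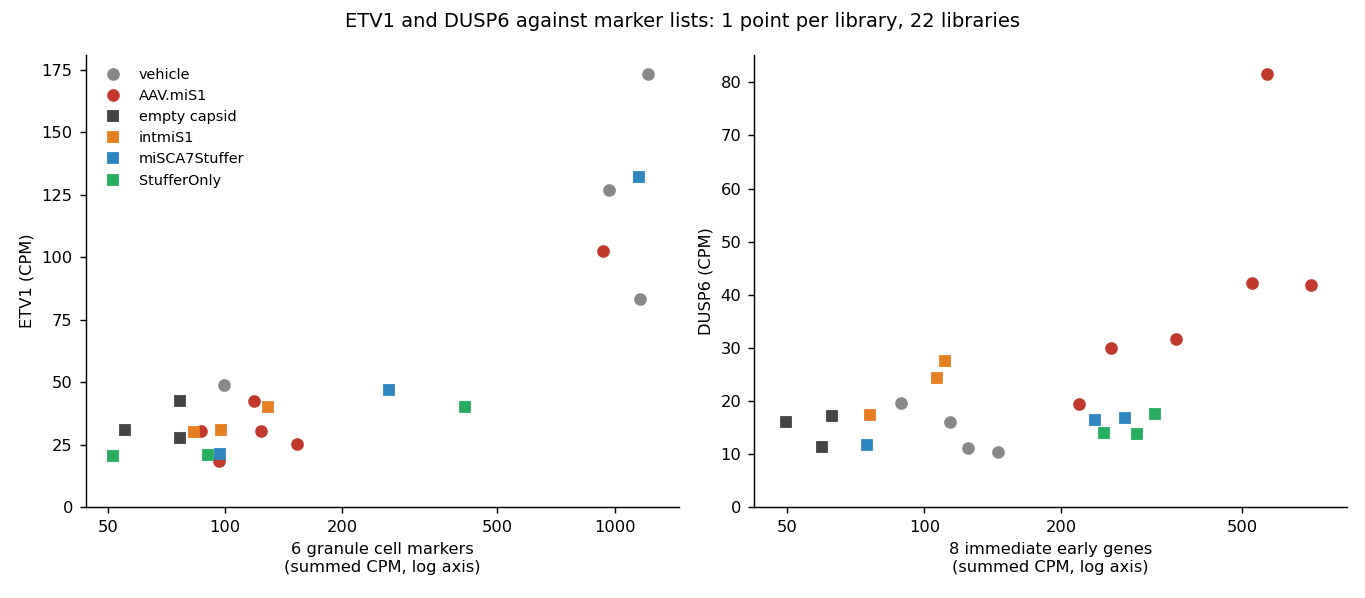
ETV1 against the summed CPM of 6 granule cell markers (left) and DUSP6 against that of 8 immediate early genes (right) in the 22 libraries; y axes are linear CPM, x axes log, colours mark groups. The 5 libraries with 936 to 1219 CPM of granule cell markers are those with 83.1 to 173 CPM of ETV1. DUSP6 lies above every vehicle library in 5 of the 6 AAV.miS1 libraries. StufferOnly libraries, with 248 to 321 CPM of immediate early genes, hold 13.8 to 17.6 CPM of DUSP6 against 11.4 to 17.1 with empty capsid. The 2 studies are scaled separately.

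ETV4 was close to the limit of detection. In Study 1 it had 3, 0, 2 and 12 reads in the vehicle libraries and 6 to 62 in the AAV.miS1 libraries, and it did not pass the filter on low counts. Vehicle libraries held 1.30, 0, 0.562 and 3.98 CPM, and AAV.miS1 libraries 2.14 at the lowest, 3.28 at the median and 16.1 at the highest. Library 2 alone stood out. In Study 2, empty capsid libraries held 2.63, 2.79 and 2.72 CPM and intmiS1 libraries 8.01, 5.11 and 3.12. All intmiS1 libraries lay above the controls, with a log2 fold change of 0.97 (0.01 to 1.92) and an adjusted p of 0.576 in edgeR. With the counting program as a covariate it was 0.20. StufferOnly held 2.12 to 4.78 CPM and miSCA7Stuffer 2.26 to 4.43, on both sides of the controls.

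ETV5 means were set largely by single libraries. Vehicle libraries held 181, 145, 166 and 228 CPM, and AAV.miS1 libraries 142 at the lowest, 183 at the median and 434 at the highest, again in library 2. In log2 terms this was 0.26 (-0.42 to 0.94, adjusted p 0.586 in edgeR). Empty capsid libraries held 77.3, 84.6 and 204 CPM, of which library 3 was higher than every other library of Study 2. The intmiS1 libraries held 87.5, 118 and 119 CPM of ETV5. Levels with miSCA7Stuffer were 116, 126 and 155 CPM, and with StufferOnly 79.0, 112 and 88.8. The changes against empty capsid were -0.17, 0.12 and -0.38 in that order, with adjusted p values of 0.911, 0.854 and 0.476 in edgeR. All miSCA7Stuffer libraries lay above all StufferOnly libraries (0.51, -0.30 to 1.31, adjusted p 0.672).

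DUSP6, the phosphatase that inactivates ERK, was higher with AAV.miS1 by its mean and just missed the threshold. Vehicle libraries held 11.3, 10.4, 16.0 and 19.6 CPM. The lowest, median and highest AAV.miS1 library held 19.4, 36.8 and 81.7 CPM. Of the 6, 5 lay above every vehicle library, and library 5 lay just below vehicle library 4. The log2 fold change was 1.43 (SE 0.40, 0.55 to 2.30), with an adjusted p of 0.0532 in edgeR and 0.0116 in DESeq2. Without AAV.miS1 library 5 or 6 it passed in edgeR as well (adjusted p 0.0132 and 0.0480), and without vehicle library 2 it was 1.39 (adjusted p 0.0949). In all, edgeR called 2300 of 13267 genes without library 5 and 1315 of 13268 without library 6. Among the 5 libraries with over 15% of reads unmapped it was 0.50 (adjusted p 0.818), and these hold 2 AAV.miS1 libraries, 5 and 6, the lowest in DUSP6.

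In Study 2, DUSP6 was 11.4, 16.1 and 17.1 CPM with empty capsid, 14.0, 17.6 and 13.8 with StufferOnly and 11.8, 16.7 and 16.5 with miSCA7Stuffer. These 3 groups overlapped, with changes of 0.02 (-0.47 to 0.52) and 0.01 (-0.48 to 0.51) against empty capsid. The intmiS1 libraries held 24.4, 27.5 and 17.4 CPM, all above the controls (0.63, 0.11 to 1.15, adjusted p 0.576 in edgeR). Library 3, at 17.4 CPM, was next to the highest control at 17.1, and with the counting program as a covariate the change was 0.23. Immediate early genes (FOS, FOSB, JUN, JUNB, EGR1, EGR2, ARC and NR4A1), which respond to the same MAPK signalling, summed to 88.8 to 145 CPM with vehicle and 219 to 709 with AAV.miS1. With StufferOnly they summed to 248 to 321 CPM against 49.7 to 62.6 with empty capsid, while DUSP6 was 13.8 to 17.6 CPM against 11.4 to 17.1. The part of such activation in the AAV.miS1 values was not tested.

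SPRY4, a Sprouty inhibitor of receptor signalling, was the only one of the 10 genes called between constructs. StufferOnly libraries held 14.9, 10.4 and 13.4 CPM, intmiS1 libraries 29.2, 28.3 and 22.2, and empty capsid libraries 17.4, 19.8 and 19.6. The controls lay between the 2 constructs without overlap. SPRY4 was higher with intmiS1 than with StufferOnly by 1.03 (SE 0.19, 0.62 to 1.44), with an adjusted p of 0.0129 in edgeR, in a comparison that called 11.9% of 21501 genes, 3.4% as higher and 8.46% as lower. At an unadjusted p under 0.05, DUSP6 and SPRY4 passed of the 10 members, against 29.5% of all genes. Against empty capsid neither construct passed: intmiS1 was at 0.48 (0.08 to 0.89, adjusted p 0.576) and StufferOnly at -0.55 (-0.96 to -0.15, adjusted p 0.0687 in edgeR, 0.0148 in DESeq2). The call between constructs was lost without intmiS1 library 1 or 2 (adjusted p 0.0590 and 0.0520 in edgeR) and with the counting program as a covariate (0.78, adjusted p 0.177). The miSCA7Stuffer libraries held 19.8, 15.6 and 15.6 CPM, all above the StufferOnly libraries (0.40, -0.01 to 0.80, adjusted p 0.499). In Study 1, vehicle libraries held 16.0, 41.5, 26.7 and 26.5 CPM and AAV.miS1 libraries 11.0 at the lowest, 18.2 at the median and 33.3 at the highest, with overlap and a change of -0.32 (-1.06 to 0.42).

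SPRED1, a Spred-family inhibitor of RAS, was lower in mean with all 4 constructs than with the control of the study. Empty capsid libraries held 133, 150 and 176 CPM. StufferOnly libraries held 91.1, 84.2 and 91.0, miSCA7Stuffer libraries 95.6, 118 and 109. All 6 lay below the controls. SPRED1 fell by 0.78 on the log2 scale with StufferOnly (SE 0.14, interval -1.10 to -0.47), with an adjusted p of 0.0187 in edgeR. The call was lost without any 1 of the libraries compared except StufferOnly library 1 (adjusted p up to 0.0931). With miSCA7Stuffer the change was -0.50 (-0.82 to -0.19, adjusted p 0.135 in edgeR, 0.0146 in DESeq2), and the constructs differed by 0.28 (-0.03 to 0.59, adjusted p 0.544), with all miSCA7Stuffer libraries above all StufferOnly libraries. Oligodendrocyte markers summed to 14929 to 17334 CPM with StufferOnly and 25206 to 37829 with empty capsid. In miSCA7Stuffer library 1 they were 31178 CPM, inside the control range, and SPRED1 was 95.6 CPM there. Granule cell markers in that library were 1157 CPM, against 55.2 to 76.7 with empty capsid. The part of these cell types in the SPRED1 values was not tested.

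The intmiS1 libraries held 76.1, 97.2 and 143 CPM of SPRED1, of which library 3 lay inside the control range. The change was -0.53 (-0.99 to -0.07, adjusted p 0.576 in edgeR), -0.10 with the counting program as a covariate and -0.82 with an adjusted p of 0.0122 without library 3. That last fit called 1852 of 22173 genes. In Study 1, vehicle libraries held 155, 187, 121 and 153 CPM and AAV.miS1 libraries 93.4 at the lowest, 113 at the median and 125 at the highest. Of the AAV.miS1 libraries, only library 4 reached above the lowest vehicle library, and the change was -0.43 (-0.76 to -0.10, adjusted p 0.0984).

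Counted over the set, edgeR called no member with AAV.miS1 (7.5% of all genes), miSCA7Stuffer (0.00479%) or intmiS1 (0%) against the control, and 2 of 10 with StufferOnly (15.4%). At an unadjusted p under 0.05, 5 of the 9 tested members passed with AAV.miS1 (26.8% of all genes), 3 of 10 with miSCA7Stuffer (23%), 4 of 10 with intmiS1 (8.52%) and 3 of 10 with StufferOnly (32.5%). DESeq2 called 1 member with AAV.miS1, where it called 1786 of 13383 genes, and 2 with miSCA7Stuffer, where it called 2339 of 20882. It called 0 with intmiS1, of 52 genes in 21501, and 3 with StufferOnly, of 5329 in 20882. The median log2 fold change of the members was -0.02 with AAV.miS1, against 0.02 over all genes tested. It was 0.10 with intmiS1 (0.01 over all genes), 0.07 with miSCA7Stuffer (0.07) and -0.10 with StufferOnly (0.02). The capicua targets did not move one way: of the 5 tested with AAV.miS1, DUSP6 and ETV5 were above 0 and ETV1, SPRY4 and SPRED1 below. With StufferOnly against empty capsid, 5 of 10 members did not overlap between groups, against 49% of all genes. With AAV.miS1 it was ATXN1 alone, against 10.4%. With intmiS1 it was 4, ATXN1L, ETV4, DUSP6 and SPRY4, all higher, against 20.2% of all genes in either direction and 9.51% higher. With miSCA7Stuffer it was 3, CIC higher and RBM17 and SPRED1 lower, against 24.8% in either direction and 12.7% lower. Between miSCA7Stuffer and StufferOnly it was 4, CIC, ETV5, SPRY4 and SPRED1, all higher with miSCA7Stuffer, against 6.24% of all genes higher and 8.42% lower. There no member had an unadjusted p under 0.05, against 10.1% of all genes, and neither edgeR nor DESeq2 called one.

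AAV.miS1 library 2 was the highest of its group for 6 of the 10 genes: CIC, ETV1, ETV4, ETV5, DUSP6 and SPRY4. It held 81.7 CPM of DUSP6, 434 of ETV5 and 16.1 of ETV4, where the next library held 42.3, 219 and 5.25. It also had the most vector reads, 67.8 RPM, and 936 CPM of granule cell markers, against 86.9 to 153 in the other AAV.miS1 libraries. The part of vector reads or granule cells in these values was not tested. The highest ATXN1L and SPRED1 lay in library 4, and the highest ATXN1 and RBM17 in library 1.

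None of the members passed the tests of AAV.miS1's effect against that of a Study 2 construct. For AAV.miS1 against intmiS1, each relative to its own control, the difference was -0.34 for ATXN1 (-1.04 to 0.36, adjusted p 0.634 in edgeR), 0.71 for DUSP6 (-0.28 to 1.71, 0.455) and -0.87 for SPRY4 (-1.72 to -0.02, 0.277). SPRY4 alone had an unadjusted p under 0.05, against 17.3% of all genes, and DESeq2 called no member. For AAV.miS1 against StufferOnly, it was -0.52 for ATXN1 (-1.22 to 0.18), 1.42 for DUSP6 (0.42 to 2.41) and 0.26 for SPRY4 (-0.59 to 1.10). DUSP6 alone had an unadjusted p under 0.05, against 2.81% of all genes, none passed after adjustment in edgeR or DESeq2, and edgeR called 0% of genes in either comparison.

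Beyond the 10 genes, 3 further lists of the pathway were counted. Of 22 other genes repressed by capicua or induced by MAPK signalling, 3 of 19 tested rose with AAV.miS1 and none fell, where 7.22% of all genes rose and 0.284% fell, with a list median of 0.42 against 0.02 over all genes. IER3, an early response gene, rose by 2.57 (SE 0.55, adjusted p 0.0279 in edgeR) from 4.34 ± 4.08 CPM with vehicle to 14.9 ± 7.75 with AAV.miS1 (SD, n = 4 and 6). MAFF, a small Maf factor, rose by 3.81 (SE 0.82, adjusted p 0.0279 in edgeR) from 0.943 ± 0.994 to 16.6 ± 10.8 CPM. MYC, a growth regulator, rose by 1.71 (SE 0.47, adjusted p 0.0499 in edgeR) from 9.70 ± 2.06 to 31.0 ± 18.6 CPM. Vehicle libraries held 0 to 2.16 CPM of MAFF and AAV.miS1 libraries 3.82 to 29.4. MYC was likewise higher in every AAV.miS1 library, and IER3 overlapped. MYC peaked in library 2 at 65.0 CPM. All 3 calls were lost without any 1 vehicle library and without AAV.miS1 library 4, and MYC also without AAV.miS1 library 1, 2 or 3. The 10 microglia and macrophage markers all rose in the same comparison, with a median of 3.59, and their part in these rises was not tested.

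With StufferOnly against empty capsid, 4 of 21 tested rose and none fell, where 11.6% of all genes rose and 3.81% fell. They were MYC, MAFF, IER3 and DUSP5, a nuclear ERK phosphatase. The list median was 0.15 against 0.02 over all genes. MYC rose by 1.56 and MAFF by 1.79 on the log2 scale (adjusted p 0.0196 and 0.0336 in edgeR). IER3 rose by 1.96 and DUSP5 by 3.21 (adjusted p 0.0361 and 0.0411 in edgeR), the latter from 0.514 ± 0.165 to 4.83 ± 3.54 CPM. All 4 were higher in every StufferOnly library than in any control, and all 4 calls were lost without any 1 of the libraries compared except StufferOnly library 1. In the same comparison all 10 microglia markers rose (median 3.51), as did 7 of 8 immediate early genes (median 2.07), and their part in these rises was not tested. Against StufferOnly, intmiS1 was at -1.04 for MYC, -0.81 for PHLDA1 and 0.72 for SPRED2, another Spred-family gene (adjusted p 0.0472, 0.0493 and 0.0193 in edgeR). These calls were lost with the counting program as a covariate, under which edgeR called 0 genes in all, and without intmiS1 library 1 or 2 or StufferOnly library 2 or 3. That of MYC was also lost without intmiS1 library 3. No gene of this list passed with intmiS1 or miSCA7Stuffer against empty capsid in edgeR (2 and 8 of 21 at an unadjusted p under 0.05, against 8.52% and 23% of all genes, and 0 and 2 in DESeq2).

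**Figure D5:**
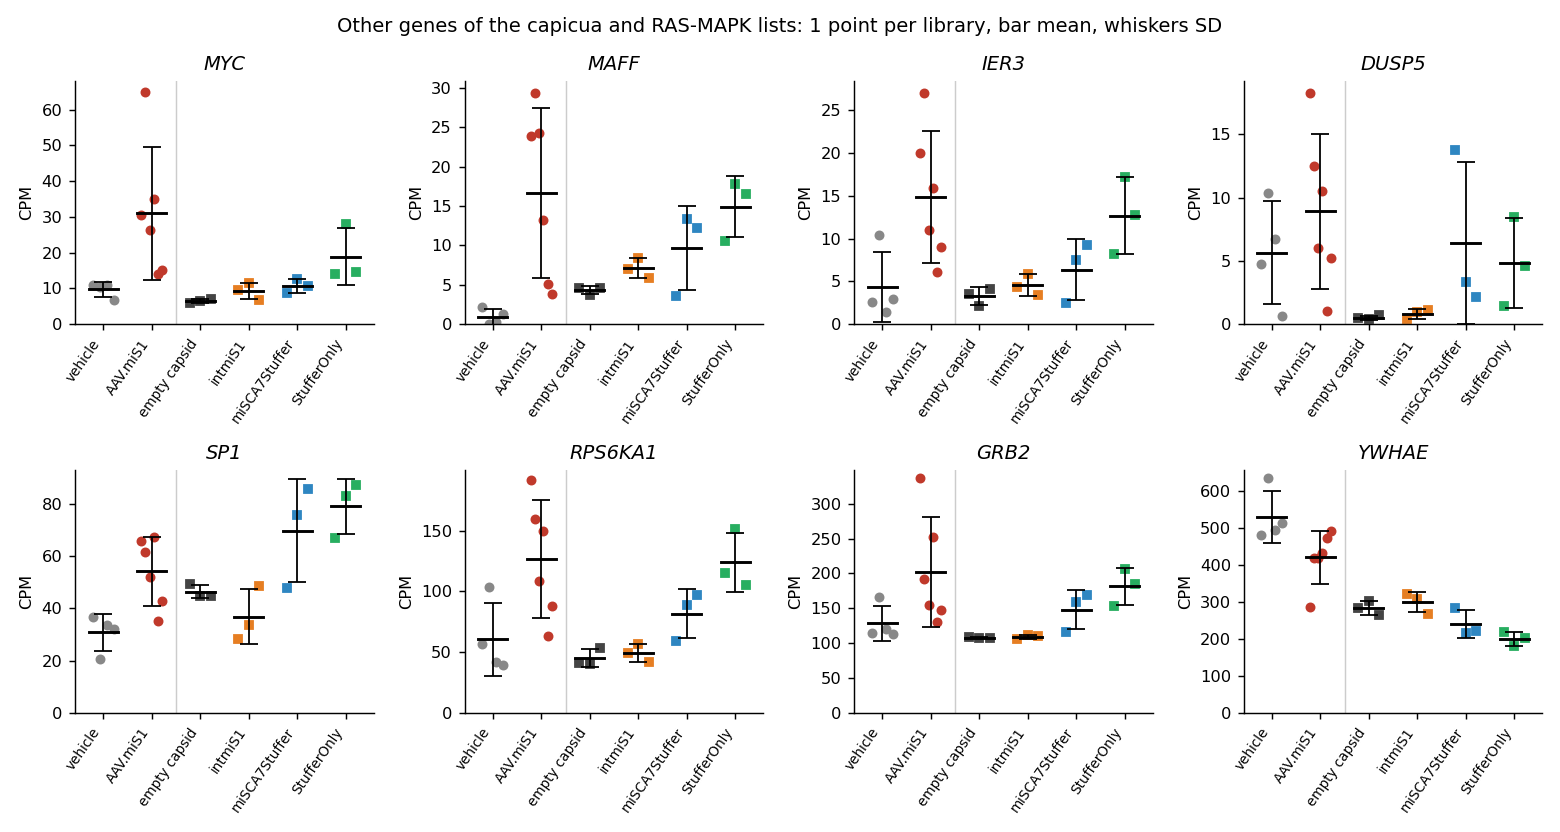
CPM (y axis, linear, from 0) by group (x axis) of 8 genes from the further lists, with 1 point per library, mean bars and whiskers of 1 SD; circles are Study 1 and squares Study 2, scaled separately. MYC, MAFF and RPS6KA1 are higher in all StufferOnly squares than in the empty capsid squares, and YWHAE is lower.

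In the list of 23 genes of the RAS-MAPK cascade, those named here passed with StufferOnly against empty capsid, where 11.6% of all genes rose and 3.81% fell. RPS6KA1, an ERK-activated kinase common in myeloid cells, rose by 1.46 (SE 0.23, adjusted p 0.0181 in edgeR) from 45.0 ± 7.24 to 124 ± 24.2 CPM (SD, n = 3 each). GRB2, the adaptor that recruits SOS, rose by 0.75 and RPS6KA3, a related kinase, by 0.73 (adjusted p 0.0247 and 0.0245 in edgeR). PTPN11, a phosphatase that promotes RAS signalling, fell by 0.49 and SOS2, a RAS exchange factor, fell by 0.35 (adjusted p 0.0271 and 0.0372 in edgeR). These calls were lost without any 1 of the libraries compared except StufferOnly library 1, and that of SOS2 without this one too. The 10 microglia markers all rose in the same comparison, with a median of 3.51, and their part in these changes was not tested. The comparison of intmiS1 with StufferOnly shares the StufferOnly libraries. There RPS6KA1, GRB2 and RPS6KA3 were lower in intmiS1, with changes of -1.33, -0.73 and -0.77, and FGFR2 was higher by 0.78 (adjusted p 0.0286 in edgeR). All 4 calls were lost with the counting program as a covariate and without intmiS1 library 1. Without intmiS1 library 2 or StufferOnly library 3 all but that of RPS6KA1 were lost, as were GRB2 and RPS6KA3 without StufferOnly library 2 and FGFR2 without library 1. With AAV.miS1 none of the 23 genes listed passed in edgeR (6 at an unadjusted p under 0.05, against 26.8% of all genes, and 2 in DESeq2), and the list median was -0.12. None passed with miSCA7Stuffer (9 unadjusted against 23% of all genes, 4 in DESeq2) or intmiS1 (2 unadjusted against 8.52%, 0 in DESeq2) against empty capsid.

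Of 20 partners and regulators of ATXN1, none of 19 tested passed with AAV.miS1 in edgeR (4 at an unadjusted p under 0.05, against 26.8% of all genes, and SP1 in DESeq2), and the list median was 0.06. None passed with miSCA7Stuffer (2 unadjusted against 23% of all genes, 0 in DESeq2) or intmiS1 (1 unadjusted against 8.52%, 0 in DESeq2) against empty capsid. With StufferOnly against empty capsid, 2 rose and 2 fell, where 11.6% of all genes rose and 3.81% fell, with a list median of 0.03. SP1, a factor of GC-rich promoters, rose by 0.77 (adjusted p 0.0427) and U2AF2, a splicing factor that binds ATXN1, by 0.35 (adjusted p 0.0434 in edgeR). PRKACB, a catalytic subunit of protein kinase A, fell by 0.60 and YWHAE, a 14-3-3 protein that binds phosphorylated ATXN1, fell by 0.50 (adjusted p 0.0225 and 0.0453 in edgeR). All 4 calls were lost without any 1 of the empty capsid libraries or StufferOnly library 2 or 3, and those of U2AF2 and YWHAE also without StufferOnly library 1. All 10 microglia markers rose in this comparison (median 3.51), and their part was not tested. Against StufferOnly, intmiS1 was at -1.10 for SP1 and 0.58 for YWHAE (adjusted p 0.0198 and 0.0268 in edgeR). Both calls were lost with the counting program as a covariate and without intmiS1 library 1 or 2 or StufferOnly library 2 or 3.

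The genes whose pattern over the 22 libraries was most like that of ATXN1 were LYRM2, KEAP1, SNAPIN, CLPX and FBXO34. After centring within each study, their root mean square difference from ATXN1 was 0.253 to 0.267 in log2 CPM, against a median of 0.529 over 7949 named genes whose mean level reached 4 log2 CPM in both studies. LYRM2 came nearest, with group differences of -0.65 with AAV.miS1, -0.55 with intmiS1, -0.35 with miSCA7Stuffer and -0.01 with StufferOnly. Those of ATXN1 were -0.66, -0.38, -0.43 and -0.07. The other 4 had smaller AAV.miS1 differences of -0.28 to -0.20.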

How the data were processed

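Total RNA of macaque deep cerebellar nuclei was sequenced in directional libraries depleted of ribosomal RNA, per the labels' protocols. The values are read counts per gene, made and deposited by the authors. Per the submitters' processing notes, STAR 2.6.0c was used for alignment and DESeq2 for comparisons. Study 1 and intmiS1 libraries 1 and 2 came as STAR count tables, of which the reverse-stranded column was used for Study 1 and the unstranded column for intmiS1. The other 10 libraries were counted with featureCounts, each read in every gene it overlapped, per the file headers. The build, the annotation and the featureCounts strand setting are not named (not given in the sources used), so reads of antisense or overlapping genes may be included. Rows naming no gene and vector features were left out of tests and library sizes.

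Groups were compared with edgeR 4.0.16 (R 4.3.3; filterByExpr with a minimum count of 10, TMM, quasi-likelihood test, Benjamini-Hochberg over all genes of a comparison at 0.05). The empty capsid, miSCA7Stuffer and StufferOnly libraries were fitted together, all 12 libraries of Study 2 for intmiS1, and all 22 for differences between effects. DESeq2 1.42.0, RLE scaling, no filter, leaving out each library, a replicate block and technical covariates were the alternatives. The SE and interval of each fold change were derived from its F statistic. Permutation tests used scipy 1.17.1 on log2 CPM (prior count 2). The scripts were tested on simulated data. Same-numbered miSCA7Stuffer and StufferOnly libraries deviated together (correlations 0.436, 0.177 and 0.246), which the labels do not explain, and other same-numbered groups did not in every pair. Differently numbered libraries of these 2 groups did so too: miSCA7Stuffer 2 with StufferOnly 3 (0.234) and miSCA7Stuffer 3 with StufferOnly 2 (0.120). Pairs of library 1 of either group with library 2 or 3 of the other ran from -0.356 to -0.194. The values thus do not single out a pairing by number. Replicates are separate animals by the labels' identifiers, and small RNA libraries are not analysed here. The members and lists were chosen with earlier results of these data known. The text names all 10 members, up to 4 called genes in each direction per further list (63 of 65 symbols had an identifier; 1 called gene is not reported here), and the 5 genes nearest to ATXN1.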

Additional observations from a re-analysis of the deposited data

Results flagged for a closer look

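The vehicle and AAV.miS1 groups were the only ones large enough for this check. In them, 5 of 20 combinations of a member and a group had a library far from the others by Dixon's criterion on linear CPM. Its nominal rate of about 1 in 20 holds for normally distributed values. That rate gives no expected count here, because 4 of the 5 came from the same library. ATXN1 was 90.2 CPM in AAV.miS1 library 1, against 61.9 in the next. Without TMM scaling these were 76.9 and 61.4 CPM, and the criterion was not applied to such values. The other 4 were in AAV.miS1 library 2: ETV1 at 102 CPM (next 42.4), ETV4 at 16.1 (next 5.25), ETV5 at 434 (next 219) and DUSP6 at 81.7 (next 42.3).

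SPRY4 differed between the intmiS1 and StufferOnly effects, which share the empty capsid controls, by a log2 fold change of 1.03 (adjusted p 0.0129 in edgeR). Reads on the miS1 vector feature, outside the gene tests, appeared in libraries of a group whose label does not name miS1: 1.43 RPM (38 reads) in miSCA7Stuffer library 2 and 1.33 RPM (28 reads) in library 3. This feature had 0 reads in the other 20 libraries. In every library counted by STAR, the stuffer, expression cassette and pri-miRNA features of the vector had 0 reads as well. AAV.miS1 library 2 was among them, with 254 reads on the whole vector. The 0 reads on the miS1 feature in STAR libraries, AAV.miS1 included, therefore cannot show that the sequence was absent.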

How the results depend on the processing

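The number of genes called depended on the tool and on single libraries, and several of the members' values did as well. With AAV.miS1 against vehicle, 1004 genes were called, with 1786 in DESeq2. The count was 148 with a covariate marking libraries with over 15% of reads unmapped, and 123 among those libraries alone. No member was called, and 1 was in DESeq2. CIC changed sign with the unstranded column (-0.0016), with the unmapped covariate (-0.025) and in those libraries alone (-0.056), where ETV5 was -0.18. With StufferOnly against empty capsid, 3219 genes were called, with 5329 in DESeq2 and 6314 with the 2 groups fitted alone. Of the members 2 were called, with 1 without the filter, 1 with the replicate block (CIC was lost in both) and 4 with the groups alone, and DUSP6 was -0.0136 with RLE scaling and -0.0138 in DESeq2. With miSCA7Stuffer against empty capsid, 1 gene was called, with 2339 in DESeq2 and 0 with the groups alone. DESeq2 called 2 members, and DUSP6 was -0.00456 in DESeq2 and -0.00452 with RLE. Between miSCA7Stuffer and StufferOnly, 0 genes were called in edgeR (2117 at an unadjusted p under 0.05), with 1 without the filter and 476 in DESeq2. With intmiS1 against empty capsid, 0 genes were called in edgeR (1831 at an unadjusted p under 0.05), with 52 in DESeq2 and 1 with the groups alone, RBM17 was 0.0034 with the counting program as a covariate and ETV1 was -0.012 without the filter. Between intmiS1 and StufferOnly, 2552 genes were called, with 4244 in DESeq2 and 0 with the counting program as a covariate, which also took the member count from 1 to 0. For the difference of AAV.miS1 and intmiS1 effects, RLE called 1 gene, DESeq2 400 and the unstranded Study 1 column 1, and for AAV.miS1 and StufferOnly DESeq2 called 17, where edgeR called 0 (2865 and 464 at an unadjusted p under 0.05).

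Leaving out each library in turn gave 0 to 2300 genes and 0 to 1 members called with AAV.miS1, with ATXN1 at -0.75 to -0.56, CIC at -0.10 to 0.18, RBM17 at -0.10 to 0.11 and ETV5 at -0.045 to 0.39. Without vehicle libraries 1, 2, 3 or 4 the genes called were 1, 2, 0 and 2, without AAV.miS1 library 4 they were 3, and without library 5 they were 2300. With StufferOnly the range was 0 to 2593 genes and 0 to 1 members, with ETV4 at -0.33 to 0.36, ETV5 at -0.71 to 0.20, DUSP6 at -0.14 to 0.13 and the permuted ATXN1 difference at -0.17 to 0.0034. With miSCA7Stuffer it was 0 to 6983 genes, the most without library 1, and 0 to 4 members, with ATXN1 at -0.73 to -0.087, ETV1 at -0.024 to 1.41, ETV5 at -0.12 to 0.71 and DUSP6 at -0.15 to 0.13. Between miSCA7Stuffer and StufferOnly it was 0 to 343 genes. With intmiS1 it was 0 to 1852 genes, the most without library 3, and 0 to 1 members, with ETV1 at -0.14 to 0.20 and ETV5 at -0.41 to 0.42. Between intmiS1 and StufferOnly it was 132 to 3833 genes and 0 to 2 members, and for the AAV.miS1 and intmiS1 effects 0 to 872 genes. The cause of these changes was not tested.

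Deviations of same-numbered libraries of Study 2 correlated at 0.055 in the mean over 18 pairs. Over 36 differently numbered pairs the mean was -0.026 and the highest 0.234. Only between miSCA7Stuffer and StufferOnly were all 3 over 0.1, where the replicate block called 0 genes, as did the fit without it, and changed no member's call. In the other comparisons the libraries share only a number, and the labels give no pairing of miSCA7Stuffer with StufferOnly libraries either. With the replicate block, 3299 genes were called with StufferOnly against empty capsid and 3065 between intmiS1 and StufferOnly.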
